A study of Mus musculus with 9 samples.

Results

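Amacrine cells are inhibitory interneurons of the inner retina, which shape the signals that bipolar cells pass to ganglion cells. Most use GABA or glycine as their fast transmitter, and small classes also make dopamine or acetylcholine. The 9 genes described here make or move these transmitters or mark the cells by AP-2 transcription factors, and they were taken by name from the deposited expression table. Gad1 and Gad2 encode the enzymes that make GABA from glutamate, and Slc32a1 the transporter that loads GABA and glycine into synaptic vesicles. Slc6a9 encodes the glycine transporter GlyT1, Th the rate-limiting enzyme of dopamine synthesis, Chat the enzyme that makes acetylcholine and Slc18a3 the transporter that loads it into vesicles. Tfap2a and Tfap2b encode AP-2 factors, which act in the development of amacrine and horizontal cells. All 9 were found among the 35397 genes of the table, each as 1 row, and all 9 were among the 14588 genes that passed the filter on low values, a mean over the 9 libraries of no less than 1 FPKM. They were picked by name and not by a cut on their values, but with earlier results of these data known.

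The table gives FPKM, read counts scaled by gene length and library depth, for whole retinas of 5 wild-type and 4 db/db samples (wild type 1 to 5, and db/db 1, 3, 4 and 5). The db/db mouse is homozygous for a mutation of the leptin receptor gene and becomes obese and diabetic. Strain, age, sex, treatment and the number of mice behind a sample are not given by the labels used here, so p-values measure only the spread between these samples, which may be technical. The comparison asks which genes differ in the diabetic retina. In a whole retina, fewer cells of a type and less RNA per cell cannot be told apart.

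Depth was similar in all libraries, with 36.6 M to 47.9 M reads read back from the steps of the values. Of the 9 libraries, db/db 1 stood apart in its skeletal muscle and pigment epithelium genes and in its levels by transcript length. Its 5 skeletal muscle genes (Acta1, Myh4, Ckm, Mylpf, Tnnt3) summed to 178.8 FPKM, against 4.22 to 5.88 FPKM across wild type and 6.03 to 20.6 FPKM in the other db/db libraries, where db/db 4 was the highest. Genes with a longest transcript under 1500 bases had a median log2 level of 0.48 above the wild-type mean in db/db 1, and those over 5000 bases one of -0.35. In each of the other 8 libraries both medians lay between -0.10 and 0.03. The summed level of 6 pigment epithelium genes was 349.1 FPKM in db/db 1 and 65.1 to 161.3 FPKM elsewhere. The log2 changes below are therefore given with and without db/db 1. Lens genes varied in another way. The summed level of 5 of them was 179.6 FPKM in db/db 5, 87.4 FPKM in wild type 5, 79.4 FPKM in db/db 1 and 1.41 to 45.6 FPKM in the rest. The results without db/db 1 keep db/db 5, and the part of lens RNA in them was not tested. No rod, cone, bipolar, ganglion cell or Muller glia marker was listed at 0 in any library. The same held for the lens and skeletal muscle markers, so a value above 0 does not tell the tissue. The 6 rod markers summed to 10240.9 to 11021.6 FPKM across wild type and 10663.4 to 12150.9 FPKM in db/db.

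Promoter sequence is shown for 5 of the genes: Gad2 and Tfap2b, whose groups did not overlap, Th, which lay lowest, and Chat and Slc18a3, which share 1 locus. RefSeq (GRCm38.p6, the same assembly as mm10) gave 12 promoter windows for the 9 genes. The 250 bases before each start were searched on both strands for the AP-2 motif GCCNNNGGC, the cyclic AMP response element TGACGTCA and the TATA box TATAAA. Bases that GENCODE M21 counts as exon are not printed. The runs below are 5′ to 3′ on the gene's strand, with motif matches in capitals.
Gad2, chr2:22622077-22622204, plus strand: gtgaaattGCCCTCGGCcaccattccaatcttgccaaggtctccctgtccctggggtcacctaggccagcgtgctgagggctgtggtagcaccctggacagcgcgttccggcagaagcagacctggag
Tfap2b, chr1:19211804-19212053, plus strand: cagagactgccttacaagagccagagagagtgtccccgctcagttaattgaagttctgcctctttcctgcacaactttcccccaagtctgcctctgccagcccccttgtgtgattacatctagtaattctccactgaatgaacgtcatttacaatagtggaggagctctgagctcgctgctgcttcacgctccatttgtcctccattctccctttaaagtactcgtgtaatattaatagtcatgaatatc
Th, chr7:142900015-142900245, minus strand: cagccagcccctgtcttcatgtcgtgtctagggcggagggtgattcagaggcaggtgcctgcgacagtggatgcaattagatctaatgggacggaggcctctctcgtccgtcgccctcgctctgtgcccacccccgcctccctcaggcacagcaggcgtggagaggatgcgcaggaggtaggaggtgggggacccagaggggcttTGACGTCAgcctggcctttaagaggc
Slc18a3, chr14:32464851-32465041, minus strand: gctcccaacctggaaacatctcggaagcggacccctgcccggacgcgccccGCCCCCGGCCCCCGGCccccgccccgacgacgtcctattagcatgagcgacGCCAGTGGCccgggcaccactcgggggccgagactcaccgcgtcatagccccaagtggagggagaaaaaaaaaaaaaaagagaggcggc
Chat, chr14:32465990-32466159, minus strand: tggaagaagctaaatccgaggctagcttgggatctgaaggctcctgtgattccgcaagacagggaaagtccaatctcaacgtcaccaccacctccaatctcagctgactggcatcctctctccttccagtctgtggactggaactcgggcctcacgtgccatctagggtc

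The AP-2 motif was in 2 of the 12 windows, with 2 matches for Gad2, 1 of them in bases not printed, and 3 for Slc18a3, 2 of which overlap. It was in 13.7% of all 32851 RefSeq windows. The cyclic AMP response element was in 1 of the 12, that of Th, with its first base at -45 from the start, and in 1.55% of all windows. The letters TATAAA were in 1, that of Gad1 at -141, where they lie on the strand opposite to the gene. They were on either strand in 12.4% of all windows. A match describes these letters only and is no evidence of binding.

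In wild-type retina Gad1, Slc6a9 and Slc32a1 were the most abundant of the 9 genes and Th the least. The order by mean FPKM was Gad1 (43.6 ± 1.13), Slc6a9 (32.6 ± 1.70), Slc32a1 (29.7 ± 1.50), Tfap2b (24.0 ± 0.880), Gad2 (12.9 ± 0.373), Tfap2a (4.48 ± 0.230), Chat (3.86 ± 0.323), Slc18a3 (3.76 ± 0.372) and Th (1.90 ± 0.385), each with its SD over 5 libraries. The ranges of Slc6a9 and Slc32a1 overlapped, as did those of Chat and Slc18a3, and that of Slc18a3 also reached into that of Tfap2a. All other neighbours in this order were separate in these 5 libraries. FPKM here divides by all annotated exon bases, 7639 for Gad1 and 2364 for Th, so a gene with long or rarely used exons is listed lower. The values rest on 104 to 292 reads for Th, 366 to 581 for Slc18a3, 684 to 1066 for Tfap2a, 691 to 951 for Chat and at least 2275 for each of the other genes.

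**Figure D1:**
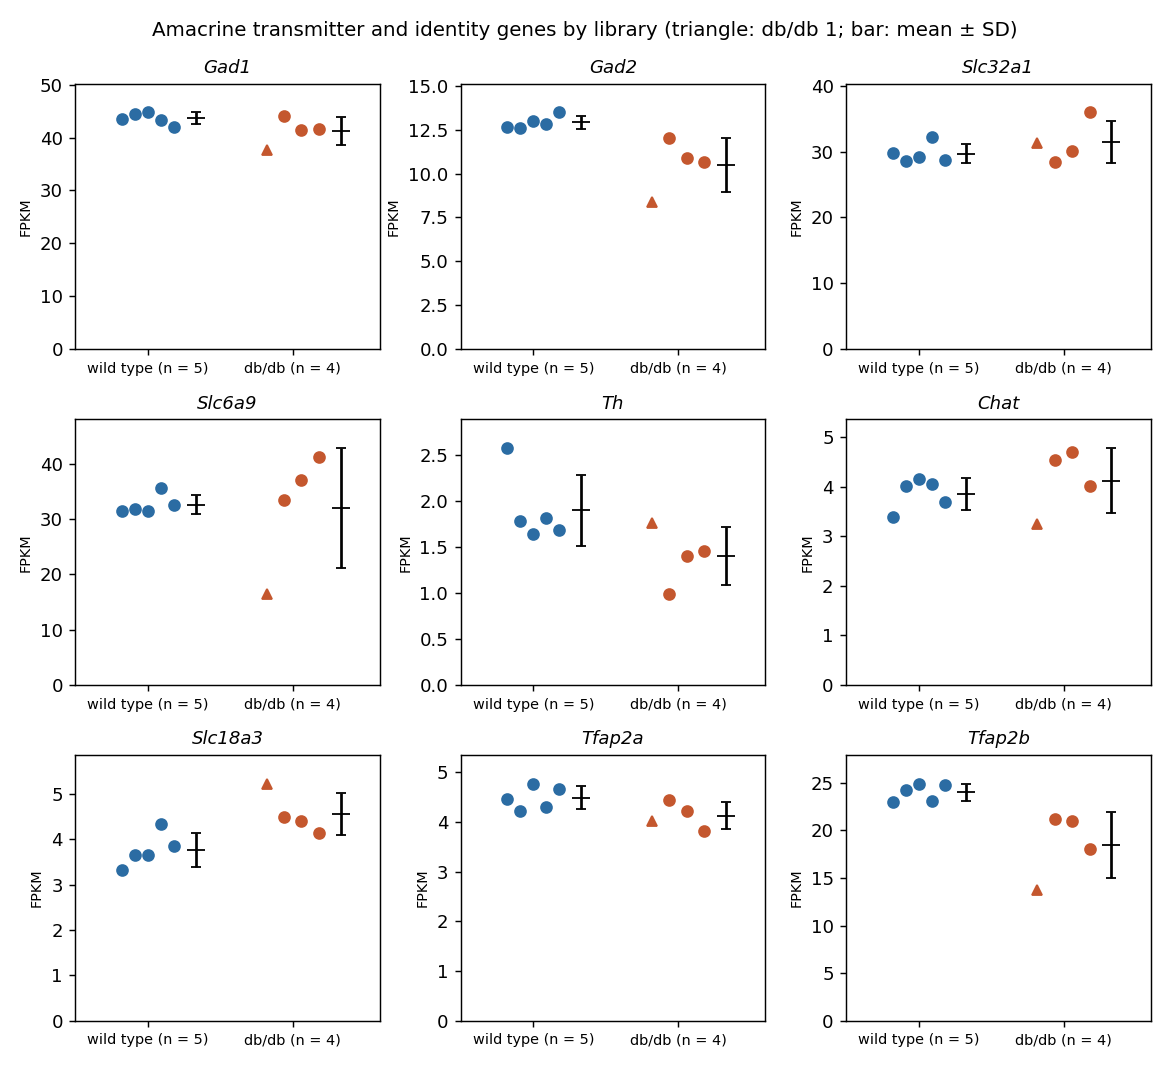
FPKM of each of the 9 genes (vertical axis from 0) in each library, wild type in blue and db/db in orange, with db/db 1 as a triangle and the mean ± SD beside each group. The groups are separate for Gad2 and Tfap2b, while db/db 1 lies far below the other db/db libraries for Slc6a9 (16.5 FPKM against 33.4 to 41.2).

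With all 9 libraries, none of the 9 genes passed an adjusted p of 0.05 between db/db and wild type (limma on log2(FPKM + 1), with p-values adjusted over all tested genes). Of all tested genes 0.500% were called, 0.233% higher and 0.267% lower in db/db. The median log2 change of the 9 genes was -0.10, against 0.0035 over all tested genes. Before adjustment 4 of the 9 had a p under 0.05 (Gad2, Tfap2b, Th and Slc18a3), and so did 19.3% of all tested genes. For Gad2 and Tfap2b all 4 db/db libraries lay below all 5 wild-type libraries, and no gene of the 9 had the opposite separation. Groups were separate in 11.6% of all tested genes, with db/db lower in 6.38% and higher in 5.20%. Once db/db 1 was left out, these 2 genes were called lower and none higher, where 10.6% of tested genes were called, 5.84% lower and 4.72% higher. Then Th was separate as well, so that 3 of the 9 genes had all db/db values below wild type and none above, against 11.5% and 9.63% of all tested genes (21.1% together).

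Of the enzymes that make GABA, Gad2 had the larger difference. Gad2 encodes GAD65, the form tied to synaptic vesicles, and lies on chromosome 2 (ENSMUSG00000026787, 22622205 to 22693874, plus strand, mm10). It stood at 12.6, 12.6, 13.0, 12.8 and 13.5 FPKM in wild type 1 to 5, and at 8.39, 12.04, 10.9 and 10.6 FPKM in db/db 1, 3, 4 and 5. Every db/db value was under every wild-type value, with db/db 1 the lowest. Its log2 change was -0.29 (SE 0.09, adjusted p = 0.134, 0.0395 to 0.433 over 21 alternatives), and its 95% interval allowed a fold of 0.715 to 0.942. Gad2 fell by 0.19 on the log2 scale without db/db 1 (SE 0.05, adjusted p = 0.0395), and was not called when db/db 4 was left out too (-0.17, adjusted p = 0.108).

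Gad1 encodes GAD67, the form found through the cytoplasm (ENSMUSG00000070880, chromosome 2, 70553072 to 70602014, plus strand). Its levels were 43.5, 44.5, 44.8, 43.3 and 42.0 FPKM across wild type and 37.7, 44.1, 41.4 and 41.6 FPKM in db/db. Only db/db 3 lay within the wild-type range, and db/db 1 was again the lowest. For Gad1 the log2 change was -0.08 (SE 0.06, adjusted p = 0.467), with an interval for the fold of 0.861 to 1.04, and -0.04 without db/db 1 (adjusted p = 0.526). The ratio of Gad1 to Gad2 within a library was 3.38 ± 0.164 (SD, n = 5) in wild type and 3.97 ± 0.365 (SD, n = 4) in db/db. It ran from 3.11 to 3.54 in wild type, while db/db 1 had 4.49 and the other db/db libraries 3.66 to 3.90. All 4 db/db ratios were thus above all 5 wild-type ratios, with and without db/db 1. Gad2 was itself lower in every db/db library, so the ratio is no separate result. The longest transcript has 5744 bases for Gad2 and 3601 for Gad1. How often the ratios of other gene pairs are separate was not tested.

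Slc32a1, the vesicular transporter shared by GABA and glycine cells, showed no such difference (ENSMUSG00000037771, chromosome 2, 158610767 to 158615748, plus strand). Its values were 29.8, 28.5, 29.2, 32.2 and 28.8 FPKM across wild type and 31.3, 28.5, 30.1 and 36.0 FPKM in db/db. The groups overlapped, and db/db 5 was the highest of the 9 libraries. For Slc32a1 the log2 change was 0.08 (SE 0.08, adjusted p = 0.597) and its interval for the fold was 0.937 to 1.19, and without db/db 1 the change was again 0.08 (adjusted p = 0.521). Its sign turned with correction for GC content (-0.07), so no direction can be given.

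Slc6a9, the glycine transporter gene, split the db/db libraries (ENSMUSG00000028542, chromosome 4, 117834506 to 117875198, plus strand). It stood at 31.5, 31.9, 31.5, 35.6 and 32.6 FPKM in wild type, and at 16.5, 33.4, 37.0 and 41.2 FPKM in db/db. The value in db/db 1 was below every other library, while db/db 4 and db/db 5 were above every wild-type library. The log2 change over all 9 libraries was -0.10 (SE 0.22, adjusted p = 0.826), with an interval for the fold of 0.662 to 1.32. It was 0.18 without db/db 1 (SE 0.07, adjusted p = 0.115), so the sign of this gene rests on 1 library.

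The low Slc6a9 value in db/db 1 also stood out among genes of its length. Its log2 level was -0.94 relative to the wild-type mean, where the 1750 tested genes whose longest transcript is within 10% of its 3479 bases had a median of 0.05 in that library. Only 1.20% of those genes were lower. Slc32a1, which GABA and glycine cells share, was 0.08 above the wild-type mean there. Genes within 10% of its length had a median of 0.20 in db/db 1, and 33.5% of them were lower. The ratio of Slc6a9 to Slc32a1 was 0.527 in db/db 1 against 1.06 to 1.13 in wild type and 1.15 to 1.23 in db/db 3, 4 and 5. Without db/db 1 the groups were thus separate for this ratio. Exons of Ccdc24 on the opposite strand share 1429 bases with those of Slc6a9, and the strand of counting is not given, so reads of the pair may not be fully separate. Ccdc24 stood at 12.1 FPKM in db/db 1, the highest of the 9 libraries, and at 7.74 to 10.6 FPKM in the others.

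**Figure D2:**
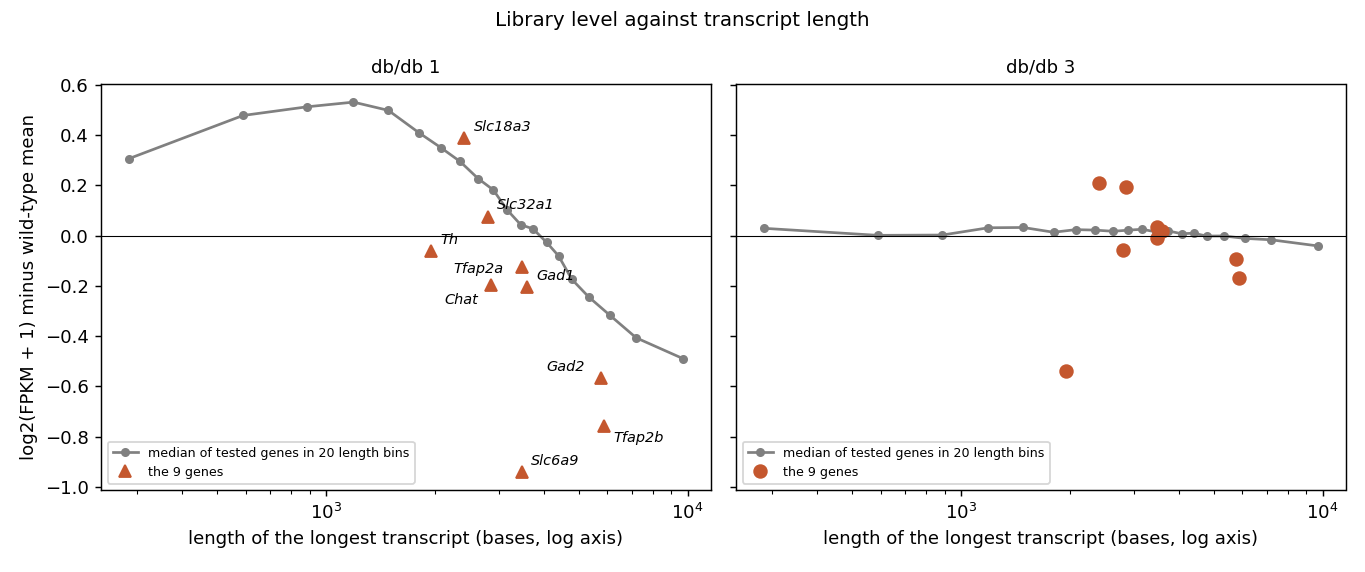
Log2 level relative to the wild-type mean (vertical axis) against the length of the longest transcript (log axis) in db/db 1 and db/db 3, with the median of tested genes in 20 length bins in grey and the 9 genes in orange. In db/db 1 the grey line falls over most of the length range and Slc6a9 lies far below it, while in db/db 3 the grey line is nearly flat.

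Th is transcribed in the few dopamine amacrine cells of the retina (ENSMUSG00000000214, chromosome 7, 142892752 to 142931128, minus strand). It was at 2.58, 1.79, 1.64, 1.82 and 1.69 FPKM in wild type, and at 1.76, 0.989, 1.41 and 1.46 FPKM in db/db. Wild type 1 was far above the other wild-type libraries, and db/db 1 lay within the wild-type range, so the groups overlapped. Its read numbers were 292, 182, 177, 191 and 182 in wild type and 192, 104, 137 and 126 in db/db. The ratio of mean FPKM was 0.737, and the log2 change of Th, understated at this level by the added 1, was -0.27 (SE 0.12, adjusted p = 0.250). When db/db 1 was left out, the 3 remaining db/db values were all below the wild-type range and the log2 change was -0.34 (SE 0.12, adjusted p = 0.0848). Over 20 alternatives the adjusted p of Th ran from 0.0664 to 0.440 and its sign did not turn. Leaving out wild type 1 gave -0.20 (adjusted p = 0.390).

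The acetylcholine pair share a locus on chromosome 14, where Slc18a3 (ENSMUSG00000100241, 32462438 to 32464850, minus strand) lies within the span of Chat (ENSMUSG00000021919, 32408203 to 32465989, minus strand). In the retina both genes are known from starburst amacrine cells, which take part in the detection of motion direction. Slc18a3 stood at 3.33, 3.65, 3.65, 4.34 and 3.85 FPKM across wild type and at 5.22, 4.50, 4.39 and 4.14 FPKM in db/db. Only wild type 4 reached into the db/db range, and db/db 1 was the highest. The log2 change of Slc18a3 was 0.22 (SE 0.08, adjusted p = 0.181), with an interval for the fold of 1.03 to 1.32 that is not adjusted for the number of genes, and 0.17 without db/db 1 (adjusted p = 0.143).

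Chat was at 3.39, 4.02, 4.17, 4.06 and 3.68 FPKM across wild type and at 3.24, 4.54, 4.71 and 4.01 FPKM in db/db. Here db/db 1 was the lowest of the 9 libraries and db/db 4 the highest. For Chat the log2 change was 0.07 (SE 0.10, adjusted p = 0.713), and without db/db 1 it was 0.16 (SE 0.07, adjusted p = 0.173). The ratio of Chat to Slc18a3 was 1.03 ± 0.0889 (SD, n = 5) in wild type. It was 0.621 in db/db 1, with longest transcripts of 2858 bases for Chat and 2413 for Slc18a3, and 0.969 to 1.07 in the other db/db libraries, within the wild-type range of 0.937 to 1.14.

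Tfap2b was lower in every db/db library than in any wild-type library (ENSMUSG00000025927, chromosome 1, 19208914 to 19238576, plus strand). Its values were 23.0, 24.2, 24.9, 23.1 and 24.7 FPKM across wild type and 13.8, 21.2, 20.98 and 18.0 FPKM in db/db. The groups were separate, and db/db 1 was far below the rest. The log2 change of Tfap2b was -0.38 (SE 0.11, adjusted p = 0.126, 0.0327 to 0.428 over 21 alternatives), with an interval for the fold of 0.645 to 0.920. Tfap2b fell by 0.25 on the log2 scale without db/db 1 (SE 0.06, adjusted p = 0.0327), and was not called when db/db 4 was left out too (-0.28, adjusted p = 0.0552).

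Tfap2a, its close relative, was at 4.47, 4.23, 4.77, 4.30 and 4.66 FPKM across wild type and at 4.02, 4.44, 4.22 and 3.81 FPKM in db/db (ENSMUSG00000021359, chromosome 13, 40715302 to 40738376, minus strand). The groups overlapped through db/db 3 alone, and the other 3 db/db libraries lay below the wild-type range. The log2 change of Tfap2a was -0.10 (SE 0.06, adjusted p = 0.396) and its interval for the fold was 0.849 to 1.03, and without db/db 1 the change was -0.09 (adjusted p = 0.339). The ratio of Tfap2a to Tfap2b was 0.174 to 0.194 in wild type, 0.292 in db/db 1 and 0.201 to 0.211 in db/db 3, 4 and 5. The db/db ratios were thus above all wild-type ratios, with and without db/db 1. Here too the ratio is no separate result, since Tfap2b was itself lower in every db/db library. The longest transcript has 5863 bases for Tfap2b and 3487 for Tfap2a. Antisense genes share exon bases with Tfap2a, the most abundant being Gm26688 at a mean of 0.585 FPKM, so few of its reads can be theirs.

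**Figure D3:**
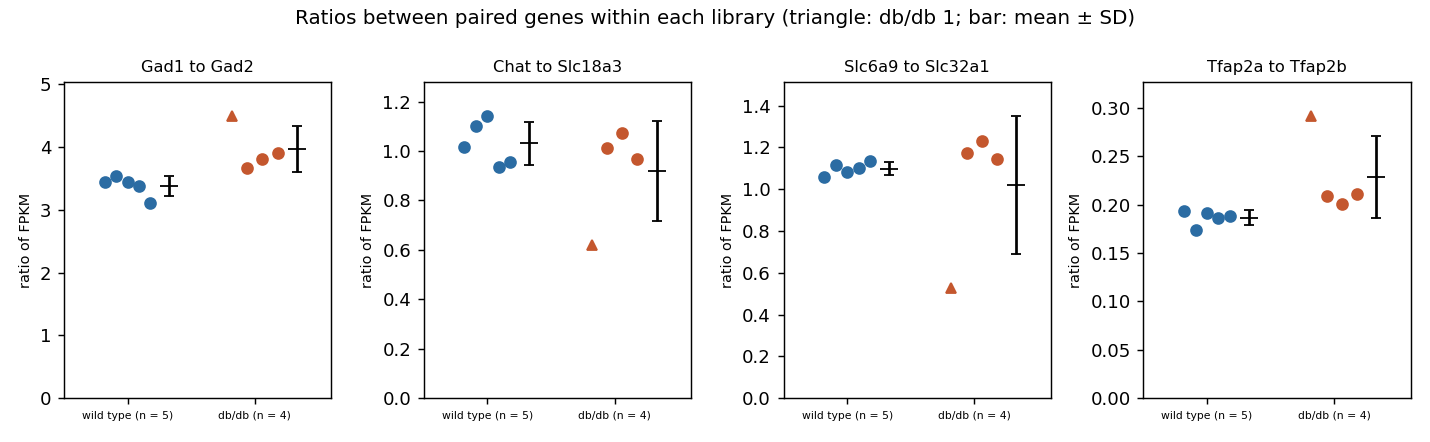
Ratio of FPKM between 2 genes in each library (vertical axis from 0) for the 4 pairs, wild type in blue and db/db in orange, with db/db 1 as a triangle and the mean ± SD beside each group. The db/db ratios of Gad1 to Gad2 (3.66 to 4.49) and of Tfap2a to Tfap2b (0.201 to 0.292) lie above the wild-type ratios, and those of the other pairs overlap with wild type. Without db/db 1, those of Slc6a9 to Slc32a1 (1.15 to 1.23) also lie above wild type (1.06 to 1.13).

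The differences of Gad2 and Tfap2b moved with length and GC content. Both have longest transcripts of over 5000 bases (5744 and 5863), and in db/db 1 their log2 levels of -0.57 and -0.76 compare with medians of -0.28 and -0.29 among genes within 10% of their lengths. Of those genes 15.0% were lower than Gad2 and 6.19% lower than Tfap2b. When each library was centred on the median of 20 length bins, with all 9 libraries, Tfap2b was called lower (-0.28, adjusted p = 0.0485). Gad2 was not called in that fit (-0.19, adjusted p = 0.0575). There 243 of the 14588 tested genes were called lower and 270 higher. The GC content of the longest transcript was 44.1% for Gad2 and 46.3% for Tfap2b. When the same was done in 20 bins of GC content and db/db 1 was left out, Gad2 had a log2 change of -0.11 (adjusted p = 0.0996) and Tfap2b one of -0.19 (adjusted p = 0.0661), so that neither was called. In the same fit 4.90% of tested genes were called, 2.56% higher and 2.34% lower.

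Across the 9 genes the changes without db/db 1 stood in part with GC content. Gad2, Tfap2b, Gad1 and Tfap2a, with 44.1% to 48.7% GC, had negative log2 changes, and Slc6a9, Slc18a3 and Slc32a1, with 57.0% to 61.9%, had positive ones. Th (54.1%) and Chat (54.3%) had changes of opposite sign. With the GC correction and without db/db 1, Slc6a9 went to 0.09, Slc18a3 to 0.06 and Slc32a1 to -0.03, while Th moved to -0.40 (adjusted p = 0.0664). The part of GC content in these differences was not tested beyond that correction.

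**Figure D4:**
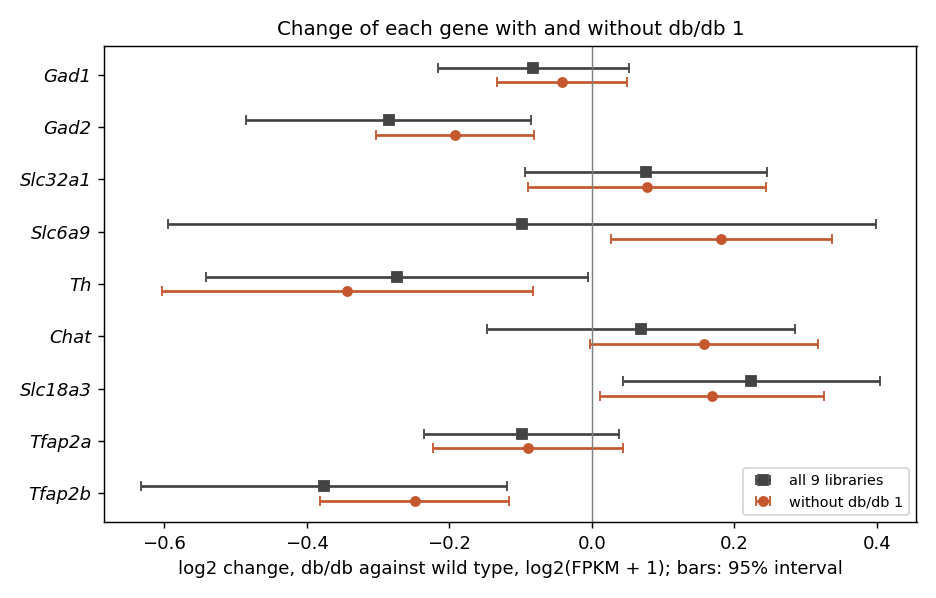
Log2 change of each gene in db/db against wild type on the log2(FPKM + 1) scale (horizontal axis), with all 9 libraries as squares and without db/db 1 as circles, and 95% intervals as bars, not adjusted for the number of genes. Slc6a9 changes side, from -0.10 to 0.18, while the intervals of Gad2 and Tfap2b narrow and stay below 0.

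Gad2 and Tfap2b varied together over the 9 libraries (Pearson r = 0.975, and 0.915 over the 8 libraries without db/db 1), given as a description since the libraries share their groups. Tfap2a and Tfap2b had r of 0.733 and 0.832, and Gad1 and Gad2 0.870 and 0.565. Chat and Slc18a3 had 0.049 with all libraries and 0.780 without db/db 1, and Slc6a9 and Slc32a1 had 0.163 and 0.864. The tested protein-coding genes most like Tfap2b over the 9 libraries were Lpgat1, Hif1a and Zbtb26 (r of 0.992, 0.992 and 0.991), and those most like Gad2 were Gpalpp1, Map9 and Kbtbd7 (0.995, 0.992 and 0.992). Most like Slc6a9 were Slc41a1, Polr2a and R3hdm2 (0.992, 0.991 and 0.991), and among the 3 most like Th were Smim10l2a and Hs3st4 (0.919 and 0.908). Such likeness is the highest among many genes over few libraries, and db/db 1 weighs on it.

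Other genes of GABA handling were all measured, and none of the 12 was called with all 9 libraries (median log2 change -0.02, and 0.02 without db/db 1). Those with the smallest p were Aldh5a1, which ends GABA breakdown (6.36 ± 0.362 FPKM in wild type, n = 5, and 5.28 ± 0.418 in db/db, n = 4, adjusted p = 0.111), Slc38a2, a glutamine transporter gene (13.1 ± 1.05 and 16.6 ± 2.10, adjusted p = 0.112), and Glul, the glutamine synthetase gene of Muller glia (617.2 ± 24.4 and 697.5 ± 7.59, adjusted p = 0.178). Their log2 changes were -0.23, 0.31 and 0.18 with all libraries and -0.23, 0.36 and 0.18 without db/db 1. On leaving out db/db 1, where 4.72% of all tested genes were called higher and 5.84% lower, 2 of the 12 rose and none fell. Slc38a2 was among them (log2 change 0.36, adjusted p = 0.0315) and was also called with the GC correction (0.44, adjusted p = 0.0227).

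Among 9 tested of 10 genes of glycine transport and metabolism, none was called with all libraries (median -0.05, and -0.00069 without db/db 1). Slc6a5, the neuronal glycine transporter GlyT2, stood at 5.85, 5.64, 5.95, 5.78 and 6.11 FPKM across wild type and at 2.97, 4.37, 5.22 and 4.41 FPKM in db/db. All its db/db values were below the wild-type values, as in 6.38% of all tested genes, and its log2 change was -0.41 (adjusted p = 0.106). Slc6a5 fell by 0.28 without db/db 1 (adjusted p = 0.0254). Shmt2, a mitochondrial enzyme that makes glycine from serine, rose by 0.25 in that fit (adjusted p = 0.0454), and by 0.21 with all libraries (adjusted p = 0.179). Without db/db 1, 5.84% of all tested genes were called lower and 4.72% higher. Under the GC correction too, Slc6a5 passed (-0.26, adjusted p = 0.0441) and Shmt2 did not (0.16, adjusted p = 0.130). That fit called 2.34% of all tested genes lower and 2.56% higher. Srr, the serine racemase gene, had -0.33 with all libraries (adjusted p = 0.306) and -0.14 without db/db 1 (adjusted p = 0.289), its lowest library at 3.63 FPKM.

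Dopamine handling and receptor genes gave no call with or without db/db 1, 10 of 14 being tested (median 0.00174 with all libraries and -0.11 without db/db 1). Ddc and Slc6a3, which follow Th in dopamine synthesis and uptake, and Gch1, which supplies the cofactor of Th, lay under the filter, at wild-type means of 0.228, 0.0615 and 0.161 FPKM. Slc18a2, the vesicular monoamine transporter gene, averaged 2.38 ± 0.189 FPKM across wild type and 2.02 ± 0.302 FPKM in db/db (SD; log2 change -0.17, adjusted p = 0.305, and -0.21 without db/db 1, adjusted p = 0.110). Maoa, which breaks down monoamines, had -0.16 (adjusted p = 0.244), and -0.20 without db/db 1 (adjusted p = 0.0594). Spr, which acts in making the cofactor of Th, had 0.21 (adjusted p = 0.459), but 0.04 without db/db 1 (adjusted p = 0.785), a library where it stood at 11.2 FPKM against 5.52 to 7.10 FPKM in the other 8. With GC correction and without db/db 1, 2.34% of all tested genes were called lower. Qdpr, which regenerates the cofactor of Th, was the 1 gene of the list called in that fit (-0.21, adjusted p = 0.0475). It was not called with all libraries (-0.03, adjusted p = 0.913) or without db/db 1 alone (-0.17, adjusted p = 0.0670), and db/db 1 was its highest library. Among acetylcholine genes 13 of 15 were tested and none was called (median 0.04, and 0.06 without db/db 1). Chrnb3, a nicotinic receptor subunit gene, had -0.26 (adjusted p = 0.107) and fell by 0.20 without db/db 1 (adjusted p = 0.0361), where 5.84% of all tested genes were called lower. It was not called once GC was corrected too (adjusted p = 0.106). Chrnb4 and Chrm4 had 0.32 and 0.20 (adjusted p = 0.305 and 0.326), and 0.35 and 0.28 without db/db 1 (adjusted p = 0.203 and 0.0811). With GC correction and without db/db 1, 2.56% of all tested genes were called higher. Slc5a7, the choline transporter gene, was the 1 acetylcholine gene called in that fit (0.32, adjusted p = 0.0349). It was not called with all libraries (0.07, adjusted p = 0.761) or without db/db 1 alone (0.17, adjusted p = 0.187).

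Of the other AP-2 factors, Tfap2c had a log2 change of -0.09 (adjusted p = 0.582) and Tfap2d one of -0.26 (adjusted p = 0.354), and Tfap2e lay under the filter. Both values rest largely on db/db 1, the lowest library for each, and were -0.0080 (adjusted p = 0.940) and -0.11 (adjusted p = 0.495) without it. None of 16 tested of 20 other amacrine identity factors was called with all libraries (median -0.12, and -0.11 without db/db 1). Bhlhe22, a factor of amacrine and bipolar subtypes, averaged 10.2 ± 0.842 FPKM across wild type and 7.19 ± 1.28 FPKM across db/db (SD; log2 change -0.46, adjusted p = 0.0798). With db/db 1 left out it was the 1 of the 16 that fell (-0.50, adjusted p = 0.0299), where 5.84% of all tested genes were called lower. It was also called with the GC correction (-0.51, adjusted p = 0.0412). Neurod4 had -0.41 with all libraries (adjusted p = 0.168), -0.26 without db/db 1 (adjusted p = 0.0922) and -0.06 with GC correction too (adjusted p = 0.591). Lhx9 had -0.19 (adjusted p = 0.189), and -0.20 without db/db 1 (adjusted p = 0.112).

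None of 16 amacrine subtype genes was called with all libraries (median -0.09, and -0.13 without db/db 1). Slc17a8, which encodes the glutamate transporter VGLUT3 of a class of amacrine cells, stood at 3.83, 3.80, 4.23, 4.10 and 4.52 FPKM across wild type and at 2.31, 3.19, 3.04 and 2.73 FPKM in db/db. Its groups were separate, with db/db lower as in 6.38% of all tested genes, and its log2 change was -0.42 (SE 0.08, adjusted p = 0.0607). Vip, a neuropeptide gene of amacrine cells, averaged 3.75 ± 0.365 FPKM across wild type and 2.55 ± 0.486 FPKM across db/db (SD; log2 change -0.42, adjusted p = 0.0744), and Dab1 had -0.21 (adjusted p = 0.190), and -0.15 without db/db 1 (adjusted p = 0.133). With db/db 1 left out, Slc17a8 and Vip were the 2 of the 16 that fell, by 0.35 (adjusted p = 0.0182) and 0.50 (adjusted p = 0.0137). Of all tested genes 5.84% were called lower in that fit. After GC correction too, Slc17a8 passed (-0.26, adjusted p = 0.0337) and Vip did not (-0.31, adjusted p = 0.107).

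Horizontal cells also express AP-2 factors and Slc32a1. None of 3 tested of 5 horizontal cell markers was called with all libraries. Their summed level was 45.6 to 47.7 FPKM across wild type and 49.3 to 69.1 FPKM in db/db, the highest in db/db 1. Sept4 made up most of it, at 31.7 ± 0.687 FPKM across wild type and 41.1 ± 5.26 FPKM in db/db (SD). It was the 1 marker of the 3 that rose without db/db 1 (log2 change 0.28, adjusted p = 0.0146), where 4.72% of all tested genes were called higher. In that fit Lhx1 had 0.07 (adjusted p = 0.491) and Calb1 had -0.15 (adjusted p = 0.0983). Onecut1 and Onecut2 lay under the filter, and the groups were separate for Sept4 alone. Bipolar markers summed to 226.5 to 246.7 FPKM across wild type, 203.4 FPKM in db/db 1 and 228.5 to 241.9 FPKM in the other db/db libraries. Ganglion cell markers summed to 248.8 to 285.4 FPKM across wild type, 394.0 FPKM in db/db 1 and 275.0 to 296.8 FPKM in the other db/db libraries. No horizontal, bipolar or ganglion cell marker was listed at 0 in any library. The part of these cells in the values of the 9 genes was not tested.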

How the data were processed

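Per the labels, retinal RNA was taken with a Qiagen column kit and made into SMARTER libraries. The authors deposited 1 table of FPKM values for 35397 genes, with mm10 as the build per the submitters' processing notes; aligner, counter, annotation and strand: not given in the sources used here. Columns named Control or DR were matched to wild-type or db/db samples by number, an inference from the names. Symbols (34499 matched), positions, lengths and GC content came from GENCODE M21. FPKM times exon length moved in constant steps, so that 98.9% to 99.1% of low values were whole reads within 0.1, and depth and reads were taken from that. Of these, 60.0% to 63.2% were even, so a read need not be a separate fragment.

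Values were tested as log2(FPKM + 1) for genes averaging 1 FPKM or more, with limma 3.58.1 in R 4.3.3 (lmFit, eBayes with a trend, no covariate) and Benjamini-Hochberg adjustment over all 14588 tested genes, with a threshold of 0.05. Changes described as without db/db 1 come from the same fit on 8 libraries. The steps were tested on simulated data. No list was tested as a set. The genes, lists and alternatives were chosen with earlier results of these data known. Genes named from the lists were those called, and where none was, the 3 of lowest p, together with those called without db/db 1 or under GC correction, a choice made after values were seen. Those most like a gene are the 3 protein-coding genes with the highest Pearson r. Some genes that these rules select are not reported here. Alternatives changed the pseudocount, filter, scaling, trend, GC or length correction, replicate block, libraries and test.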

Additional observations from a re-analysis of the deposited data

Results flagged for a closer look

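Within each group the highest or lowest library was compared with the spread of the others, for the 9 genes and 4 ratios in both groups (26 groups). Chance marks about 1 in 20 such groups, and 4 were marked. Th in wild type 1 stood at 2.58 FPKM, far above the other 4 wild-type libraries (1.64 to 1.82 FPKM). Slc6a9 in wild type 4 stood at 35.6 FPKM, above the other wild-type values of 31.5 to 32.6 FPKM. The ratio of Slc6a9 to Slc32a1 in db/db 1 was 0.527, far below the other db/db libraries (1.15 to 1.23). The ratio of Tfap2a to Tfap2b in db/db 1 was 0.292, far above the others (0.201 to 0.211).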

How the results depend on the processing

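The count of all called genes, 34 higher and 39 lower, depended on the processing. It was 7 and 2 with no filter, 17 and 13 with a filter at a mean of 5 FPKM, 5 and 1 with GC correction, 374 and 341 with GC correction and without db/db 1, and 2 and 0 with the replicate block. Chosen after seeing the data, leaving out db/db 1 and db/db 4 gave 289 and 254, length correction 270 and 243, and limma-voom on recovered reads 48 and 64. Leaving out 1 library gave 3 to 688 higher and 1 to 852 lower, the upper ends without db/db 1 and each of the other 8 libraries giving at most 8 and 5. The cause was not tested.

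Of the 9 genes none was called lower with all libraries. Leaving out 1 library gave 0 to 2 called lower, the 2 being Gad2 and Tfap2b without db/db 1. Length correction gave 1, Tfap2b, where 243 of the 14588 tested genes were called lower. No alternative called a gene higher. Of 185 values of the log2 change, 175 kept their direction and side of the threshold, 3 became called and 7 turned sign. Slc32a1 turned with quantile normalization (-0.0039), GC correction (-0.071) and GC correction without db/db 1 (-0.032). Slc6a9 turned without db/db 1 (0.18, leaving out 1 library giving -0.24 to 0.18), without both db/db 1 and db/db 4 (0.18), and with GC correction without db/db 1 (0.094). Chat turned with GC correction (-0.0097). Adjusted p ran from 0.0327 to 0.985 over these alternatives. The 4 genes with means under 5 FPKM (Th, Chat, Slc18a3, Tfap2a) had no value with the filter at 5.

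The labels state no pairing of the libraries. Between libraries of the same number, deviations from the group means correlated at 0.04, 0.05, -0.18 and 0.13 for numbers 1, 3, 4 and 5. These values cannot settle whether the numbers pair the libraries, since db/db 1 weighs on the db/db mean. With the replicate block the log2 change was -0.29 for Gad2 (adjusted p = 0.433) and -0.37 for Tfap2b (adjusted p = 0.428), and no gene of the 9 was called.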

Other observations

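Wild type 1, which had the highest Th value, was also the highest of the 9 libraries for several genes of the amacrine lists, named here after their values were seen. Others of these lists, such as Calb1 and Npy, were highest in db/db 1, and no count by library was made. Sst, the somatostatin gene, reached 13.1 FPKM in wild type 1 against 4.35 to 6.61 FPKM in the other 8 libraries. Neurod6 was at 3.47 FPKM there and 0.678 to 1.27 FPKM elsewhere. Chrm1, a muscarinic receptor gene, stood at 2.73 FPKM and at 0.956 to 1.76 FPKM in the others. Cck, the cholecystokinin gene, stood at 9.03 FPKM in wild type 1, 8.04 FPKM in db/db 1 and 3.99 to 5.63 FPKM in the rest.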
